A study of Mus musculus with 6 samples.

Results

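Apolipoproteins are the protein part of lipoproteins, the particles that carry triglyceride and cholesterol through the blood. Rows of the deposited count table and FPKM table named Apoa1, Apoa2, Apoa4, Apoa5, Apob, Apoc1, Apoc2, Apoc3, Apoe and Apom were taken, and both tables held all 10. They were 10 of the 15454 genes of the count table and 10 of the 12411 genes that passed the filter on low counts, so no member was lost to that filter. The 6 livers came from male C57BL/6 mice aged 8 to 10 weeks in which 75% of the liver had undergone warm ischemia and reperfusion. The I/R group had 3 livers from mice given vehicle, called vehicle livers 1 to 3 by their label numbers. The I/R+Rk2 group had 3 Rk2 livers, from mice given ginsenoside Rk2, a ginseng saponin, into the peritoneum 2 days before surgery and again as reperfusion began. The study's methods give 1 h of clamping, 6 h of reperfusion and, for the sequenced Rk2 group, a dose of 30 mg/kg. Both groups were operated on, sham surgery is not analysed here, and the comparison is therefore between injured livers with and without Rk2. The labels give each library a mouse liver and a number but do not state that each came from a different mouse. The p-values therefore measure the spread between these 6 samples.

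The liver makes most of the apolipoproteins in plasma. ApoB forms the backbone of very low density lipoprotein and its remnants, apoA-I and apoA-II build high density lipoprotein (HDL), and apoM is an HDL protein that carries sphingosine 1-phosphate. The small apoC proteins and apoA-V tune how fast lipoprotein lipase clears triglyceride, while apoE is the ligand by which the liver takes remnants back up. Several members are liver-restricted, but apoE is also made by macrophages, and apoA-IV is made mainly in the intestine and, in mice, in the liver as well.

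The genes lie on 5 chromosomes of mm10, and 7 of the 10 fall into 2 clusters. On chromosome 9, Apoa1 (chr9:46228580-46230466), Apoc3 (chr9:46232933-46235636), Apoa4 (chr9:46240696-46243459) and Apoa5 (chr9:46268633-46271919) stand side by side, with Apoc3 on the minus strand and the other 3 on the plus strand. On chromosome 7, Apoc2 (chr7:19671579-19677941), Apoc1 (chr7:19689481-19692660) and Apoe (chr7:19696109-19699188) all lie on the minus strand. Apoa2 (chr1:171225054-171226379) and Apob (chr12:7977648-8016835) lie on the plus strand, and Apom (chr17:35128997-35132050) on the minus strand. These positions span whole genes, introns included, in the GENCODE M21 annotation. Promoter windows of RefSeq on GRCm38.p6, each running from 250 bases before to 50 bases after a gene's start, were found for 8 of the 10 members. The 4 windows below belong to the member with the largest log2 fold change from TMM-scaled counts, the most abundant member, and the 2 members whose log2 fold changes were negative. Capitals mark a TATAAA or CACGTG match, on either strand, and a window without capitals holds neither.
Apoe (chr7:19699139-19699438, minus strand): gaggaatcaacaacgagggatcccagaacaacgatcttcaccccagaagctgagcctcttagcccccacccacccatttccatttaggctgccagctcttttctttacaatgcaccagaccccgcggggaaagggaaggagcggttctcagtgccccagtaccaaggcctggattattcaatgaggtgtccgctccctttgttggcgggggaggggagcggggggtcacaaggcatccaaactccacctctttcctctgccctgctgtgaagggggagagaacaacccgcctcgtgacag
Apoa2 (chr1:171224804-171225103, plus strand): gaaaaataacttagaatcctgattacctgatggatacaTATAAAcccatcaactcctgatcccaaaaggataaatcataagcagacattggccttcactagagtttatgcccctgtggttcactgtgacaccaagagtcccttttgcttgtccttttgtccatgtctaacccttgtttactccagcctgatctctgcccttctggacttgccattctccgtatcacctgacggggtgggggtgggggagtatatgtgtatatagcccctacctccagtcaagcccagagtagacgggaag
Apoa4 (chr9:46240594-46240893, plus strand): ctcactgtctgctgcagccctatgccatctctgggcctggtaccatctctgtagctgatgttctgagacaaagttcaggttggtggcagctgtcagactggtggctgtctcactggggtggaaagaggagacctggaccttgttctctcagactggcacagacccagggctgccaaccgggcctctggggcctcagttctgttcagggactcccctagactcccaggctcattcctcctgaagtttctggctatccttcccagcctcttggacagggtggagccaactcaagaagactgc
Apoa5 (chr9:46268383-46268682, plus strand): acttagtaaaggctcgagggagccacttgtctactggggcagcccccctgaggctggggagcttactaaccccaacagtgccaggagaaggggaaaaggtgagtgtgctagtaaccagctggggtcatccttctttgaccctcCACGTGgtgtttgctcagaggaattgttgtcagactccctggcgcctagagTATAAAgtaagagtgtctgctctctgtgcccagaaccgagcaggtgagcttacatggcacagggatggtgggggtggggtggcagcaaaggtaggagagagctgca

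In these windows TATAAA was matched in Apoa2, Apoa5 and Apob, 3 of 8 members, and in 13.6% of all 32851 windows. CACGTG was matched in Apoa5 alone of the members and in 7.15% of all windows. AGGTCA, the half-site of many nuclear receptors, was matched in Apoc2 among the members and in 16.3% of all windows. GTTAAT, part of the site of hepatocyte nuclear factor 1, was likewise matched in Apoc2 and in 7.1% of windows, and TTGCNNAA, a core of the C/EBP site, in Apob and in 10.8% of windows. Each motif was read on both strands. The Apoa1, Apoa4, Apoe and Apom windows held no match to any of the 5 motifs. Windows follow the RefSeq start, which is the GENCODE start for Apoe, Apoa2, Apoa5 and Apoc2. It lies downstream of the GENCODE start by 29 bases for Apob, 50 bases for Apoa1, 148 bases for Apoa4 and 249 bases for Apom, whose window therefore lies almost wholly inside the GENCODE gene.

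The transcripts of Apoe, Apoc3, Apoc1, Apoa2 and Apom were higher in Rk2 livers than in vehicle livers, and Apoa4 was lower. The remaining 4, Apoa1, Apoa5, Apob and Apoc2, did not pass the test, which was edgeR's quasi-likelihood test with an adjusted p below 0.05. Of all genes tested 43.9% passed the test, 20.3% as higher and 23.7% as lower in Rk2 livers, so 6 of 10 is to be read against a background in which such calls were common. A fold change above 2 together with the adjusted p was met by Apoe alone, 1 of 10 members, and by 14.6% of all genes. The median log2 fold change (I/R+Rk2 over I/R) was 0.45 over the 10 members and -0.01 over all genes, and it was positive for 8 of 10. Levels are given as CPM, counts per 1000000 of the library size after scaling by trimmed mean of M values (TMM). The CPM ranges of the groups did not overlap for 7 members, against 57.4% of all genes, and the FPKM ranges for 6 members, against 53.1% of genes with a mean FPKM of at least 1. DESeq2 called 7 members (44.4% of its genes), edgeR with library size alone 5 (38.7%), and limma on log2(FPKM + 1) 5 (38.8%). With libraries scaled by hepatocyte markers, Apoe stayed higher and Apoa4 lower, Apom changed sign, and Apoc3, Apoc1 and Apoa2 no longer passed.

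**Figure D1:**
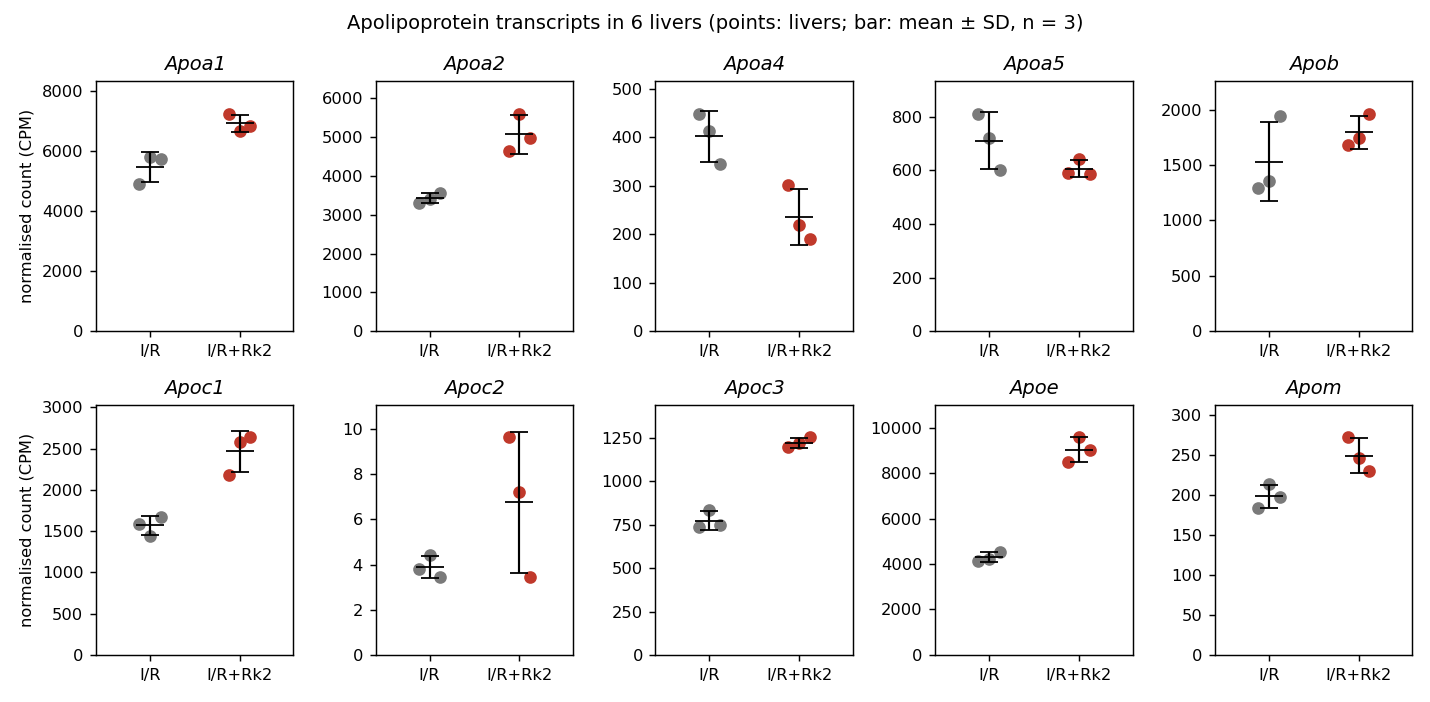
CPM (y axis, from 0, a separate scale for each gene) after TMM scaling for the 10 apolipoprotein transcripts, with the 3 vehicle livers (I/R) in grey and the 3 Rk2 livers (I/R+Rk2) in red. Points are livers and black bars are the mean ± SD. All Rk2 livers lie above all vehicle livers for Apoa1, Apoa2, Apoc1, Apoc3, Apoe and Apom and below them for Apoa4, while the groups overlap for Apoa5, Apob and Apoc2.

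The libraries differed in ways that touch every member. Total counts ran from 16809613 to 35618074, and TMM factors from 1.01 to 1.14 in vehicle livers and from 0.914 to 0.975 in Rk2 livers. All 18 hepatocyte markers were detected in all 6 libraries. Of these, 13 were higher and 0 lower in Rk2 livers, with a median log2 fold change of 0.45, and their summed level was 85619 to 98104 CPM in vehicle livers and 123605 to 150176 CPM in Rk2 livers. The count of 13 was 8, with 1 lower, under library size alone, and it was 7 without vehicle liver 1, 8 without vehicle liver 3, 6 without Rk2 liver 2 and 7 without Rk2 liver 3. Albumin (Alb), transferrin (Trf) and fetuin-A (Ahsg) were the most abundant of these markers, with log2 fold changes of 0.70, 0.45 and 0.31. All 9 monocyte markers and 8 of 9 neutrophil markers fell, at medians of -4.33 and -2.19. Of all genes tested under TMM, 20.3% were called higher and 23.7% lower. In bulk liver RNA, fewer cells of a type and less RNA per cell cannot be told apart. The members are for this reason also given with libraries scaled by the hepatocyte markers.

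Under TMM scaling Apoe had the largest log2 fold change of the 10 in the fit to all 6 libraries, and the only called rise above 2-fold. The order depended on the processing, and Apoa4 moved further than Apoe with library size alone (-0.93 against 0.91), with hepatocyte marker scaling (-1.17 against 0.65), with a transcript length trend taken out (-0.86 against 0.82) and in log2(FPKM + 1) (-0.94 against 0.45). Without Rk2 liver 3, Apoc2 moved further (1.12 against 1.07). The level of Apoe was 4140, 4219 and 4547 CPM in vehicle livers 1 to 3 and 8473, 9575 and 9023 CPM in Rk2 livers 1 to 3. Every Rk2 liver lay well above every vehicle liver. The means were 4302 ± 216 and 9023 ± 551 CPM (SD, n = 3 per group), and the log2 fold change was 1.07 (standard error, SE, 0.12) at an edgeR adjusted p of 0.000834. Leaving out any single library kept the adjusted p below 0.05. With library size alone the log2 fold change was 0.91 (SE 0.11, edgeR adjusted p 0.000652), below 2-fold. In FPKM, which divides by transcript length, the same livers read 5774, 5735 and 5934 in vehicle livers and 7733, 8408 and 7711 in Rk2 livers. The FPKM groups did not overlap either, but the ratio of their means was only 1.37. Macrophages also make apoE, and in these livers 5 of 13 tested macrophage and Kupffer cell markers were lower and 0 higher in Rk2 livers. The number lower was 9 without vehicle liver 2, 10 with library size alone and 11 with hepatocyte marker scaling. Of all genes, 43.9% were called under TMM, 23.7% as lower. The last 2 scalings set all genes lower, at medians of -0.17 and -0.42. With hepatocyte marker scaling 41.6% of all genes were called lower. The summed level of the whole list of 14 was 274 to 404 CPM in vehicle livers and 128 to 161 CPM in Rk2 livers, with no marker at 0 in all 6 libraries, and all 13 tested markers had a negative log2 fold change. Apoe thus moved in the opposite direction to the macrophage list, whose part in the Apoe level was not tested.

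Of the HDL proteins, Apoa2 and Apom rose and Apoa1 did not pass the test, though Apom changed sign under scaling by hepatocyte markers. Apoa2 encodes apoA-II, the second most abundant HDL protein. It stood at 3314, 3410 and 3572 CPM in vehicle livers and at 4630, 5603 and 4970 CPM in Rk2 livers. The groups were apart by more than their own spread, with means of 3432 ± 131 and 5068 ± 494 CPM, a log2 fold change of 0.56 (SE 0.12) and an edgeR adjusted p of 0.00821. Leaving out each library in turn kept this call.

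Apoa1 encodes apoA-I, the main structural protein of HDL and the activator of the cholesterol-esterifying enzyme LCAT. Its level was 4894, 5796 and 5745 CPM in vehicle livers and 7250, 6679 and 6849 CPM in Rk2 livers. All 3 Rk2 livers were above the 3 vehicle livers, yet the gap between the nearest livers was smaller than the range within the vehicle group. The means were 5479 ± 507 and 6926 ± 293 CPM, and the log2 fold change of 0.34 (SE 0.12) had a 95% confidence interval of 0.05 to 0.62 and an edgeR adjusted p of 0.0563. DESeq2 put the adjusted p at 0.0111, so the call depends on the tool.

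Apom was the least abundant of the 3 by CPM. It read 184, 213 and 197 CPM in vehicle livers and 272, 246 and 229 CPM in Rk2 livers, and the lowest Rk2 liver lay just above the highest vehicle liver. The means were 198 ± 14.8 and 249 ± 21.4 CPM, a log2 fold change of 0.33 (SE 0.10) with an edgeR adjusted p of 0.0325. This call was lost without vehicle liver 1 (adjusted p 0.0793), vehicle liver 3 (0.105), Rk2 liver 1 (0.0868) or Rk2 liver 2 (0.0824), in the same edgeR test. In FPKM the Apom groups overlapped.

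The apoC genes that were well counted both rose. Apoc3 encodes apoC-III, an inhibitor of lipoprotein lipase and of remnant uptake. Its level was 739, 837 and 747 CPM in vehicle livers and 1196, 1220 and 1254 CPM in Rk2 livers. The Rk2 livers were tightly grouped and far from the vehicle livers. The means of 774 ± 54.7 and 1223 ± 29.0 CPM gave a log2 fold change of 0.66 (SE 0.09) with an edgeR adjusted p of 0.00198. Apoc1 encodes apoC-I, which also slows particle clearance and activates LCAT to a lesser degree than apoA-I. It was at 1593, 1445 and 1677 CPM in vehicle livers and at 2184, 2587 and 2638 CPM in Rk2 livers. These groups too did not overlap, and the means of 1572 ± 117 and 2470 ± 248 CPM differed by 0.65 on the log2 scale (SE 0.12, edgeR adjusted p 0.00502). Neither call was lost when single libraries were left out.

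Apoc2 encodes apoC-II, the activator that lipoprotein lipase requires, and it was by far the least counted member. It had 73, 113 and 86 counts in vehicle livers and 229, 244 and 56 counts in Rk2 livers, or 3.81, 4.41 and 3.43 CPM against 9.62, 7.22 and 3.44 CPM. Rk2 livers 1 and 2 lay above all vehicle livers, whereas liver 3 lay among them. The log2 fold change was 0.81 (SE 0.35, 95% confidence interval 0.002 to 1.62) with an edgeR adjusted p of 0.0940. Without Rk2 liver 3 it was 1.12 with an adjusted p of 0.00899 in edgeR, so that library decides the call. Exons of Apoc2 overlap those of Gm44805 on the same strand, a gene model that reaches over Apoc2 and the neighbouring Apoc4, so reads of these models may have been split between them. Counts were therefore also summed, an alternative chosen after the data had been seen. Apoc2 and Gm44805 together stood at 102, 98.6 and 102 CPM in vehicle livers and at 140, 145 and 153 CPM in Rk2 livers. This sum did not overlap between groups and differed by 0.53 on the log2 scale (SE 0.08, edgeR adjusted p 0.00214). With Apoc4 added it was 484 ± 21.4 CPM in vehicle livers and 715 ± 32.9 CPM in Rk2 livers, a log2 fold change of 0.56 (SE 0.09, edgeR adjusted p 0.00272). Nearly all counts of this stretch were held by Gm44805 and Apoc4, and the level of Apoc2 by itself is uncertain.

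Under TMM scaling Apoa4 was the only member to fall, and it also fell when libraries were scaled by size alone or by hepatocyte markers. Its product, apoA-IV, is carried on chylomicrons and HDL and in mouse liver varies with triglyceride load. The level was 449, 413 and 345 CPM in vehicle livers and 301, 218 and 189 CPM in Rk2 livers. All Rk2 livers were below all vehicle livers, with wide spread inside both groups. The means were 402 ± 52.9 and 236 ± 58.0 CPM, and Apoa4 fell by 0.77 on the log2 scale (SE 0.19, edgeR adjusted p 0.0147). The adjusted p was 0.0503 without vehicle liver 1 and 0.0560 without Rk2 liver 2 in edgeR, both just above 0.05. In FPKM the means were 221 ± 41.9 and 116 ± 32.1. The antisense models Gm10680 and Gm47528 overlap its exons, neither has a row in the count table, and the strand setting of the counting is not given in the sources used here.

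Apoa5 encodes apoA-V, a scarce plasma protein that promotes triglyceride clearance. It was at 811, 720 and 601 CPM in vehicle livers and at 590, 644 and 586 CPM in Rk2 livers. Vehicle liver 3 lay within the Rk2 range, so the groups overlapped. The log2 fold change was -0.23 (SE 0.13, 95% confidence interval -0.52 to 0.07) with an edgeR adjusted p of 0.177.

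Apob encodes the structural protein of very low density lipoprotein, and each particle carries a single copy. It was at 1296, 1353 and 1945 CPM in vehicle livers and at 1679, 1747 and 1964 CPM in Rk2 livers. Vehicle liver 3 stood with the Rk2 livers and the other 2 vehicle livers below them. The means were 1531 ± 359 and 1797 ± 149 CPM, and the log2 fold change of 0.23 (SE 0.17) had a 95% confidence interval of -0.17 to 0.64 and an edgeR adjusted p of 0.311. Without vehicle liver 3 the difference was 0.44 with an adjusted p of 0.0431 in edgeR. In FPKM the sign was the other way, with 197, 95.2 and 136 in vehicle livers and 113, 114 and 124 in Rk2 livers. That sign rests on vehicle liver 1, since the other 2 vehicle livers lay on either side of the Rk2 livers.

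Levels of different genes can be compared only per length, so FPKM gives the order within the family. In vehicle livers Apoa2 (6802 ± 282 FPKM) was highest, followed by Apoe (5814 ± 105), Apoa1 (5241 ± 163), Apoc1 (3523 ± 367) and Apoc3 (1676 ± 110). No 2 neighbours among these overlapped across the 3 livers. Apoa5 (310 ± 65.6 FPKM), Apoa4 (221 ± 41.9), Apom (194 ± 8.45) and Apob (143 ± 51.1) followed, and each overlapped the next. Apoc2 was last at 5.26 ± 0.725 FPKM. In Rk2 livers the first 5 stood in the same order, from Apoa2 (8976 ± 813 FPKM) and Apoe (7951 ± 396) to Apoc3 (2374 ± 20.6), again without overlap. Below them Apoa4 (116 ± 32.1 FPKM) now stood level with Apob (117 ± 6.49), under Apoa5 (235 ± 16.5) and Apom (219 ± 25.6). Among all rows of the FPKM table, Apoa2 ranked 22 by mean level in vehicle livers and 10 in Rk2 livers. The place of Apoe depends on the transcript length behind its FPKM. Counts and FPKM together imply 752 to 818 bases for Apoe in vehicle livers and 1068 to 1080 bases in Rk2 livers. Its place above Apoa1 in vehicle livers, where Apoa1 had more counts, is therefore uncertain.

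Together the 10 transcripts held 1.99%, 1.88% and 1.96% of all counts in vehicle livers and 2.59%, 2.71% and 2.53% in Rk2 livers. At these depths the 95% binomial (Wilson) interval of each share was at most 0.0146 percentage points wide and covers counting error only, so the spread between livers was the larger error. The means were 1.94% ± 0.0556 and 2.61% ± 0.0878 (SD, n = 3 per group). The share was higher in 3 of 3 Rk2 livers, and an exact two-sided permutation test gave p = 0.1, the smallest that 3 against 3 allows. Inside the family, Apoa4 made up 0.923% ± 0.161 of the summed FPKM in vehicle livers and 0.377% ± 0.109 in Rk2 livers. Apoa5 made up 1.29% ± 0.250 and 0.759% ± 0.0275, and Apoe 24.3% ± 0.684 and 25.7% ± 0.278. The groups did not overlap for these 3 shares and overlapped for the other 7. Every share has the FPKM of Apoe in its sum, and the implied length of Apoe differed between the groups.

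The count and FPKM tables were in step for 8 members and parted for Apoe and Apob. Dividing a gene's counts per 1000000 total counts by its FPKM gives the transcript length, in kilobases, that links the tables. It is given here in bases. For the 8, the highest and lowest of the 6 livers differed by 1.01 to 1.09 times. Apoa4 and Apom, each with 1 annotated transcript, both stood at 1.07 times the annotated length (1815 and 1013 bases). For Apoe the linking length was 752 to 818 bases in vehicle livers and 1068 to 1080 bases in Rk2 livers, without overlap and 1.37 times longer in Rk2 livers. Of 9043 genes with at least 50 counts in every library, 2.34% had a ratio at least as far from 1. The annotation holds 11 Apoe transcripts of 456 to 1408 bases. For Apob the length was 7520 bases in vehicle liver 1 and 14426 to 14577 bases in the other 5 livers, with 4 annotated transcripts of 1118 to 13934 bases. A spread at least that wide was found in 6.23% of the same genes. The high Apob FPKM of vehicle liver 1 (197) therefore comes with the second lowest share of counts for Apob, 0.148%, and which table is nearer to the RNA was not tested.

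**Figure D2:**
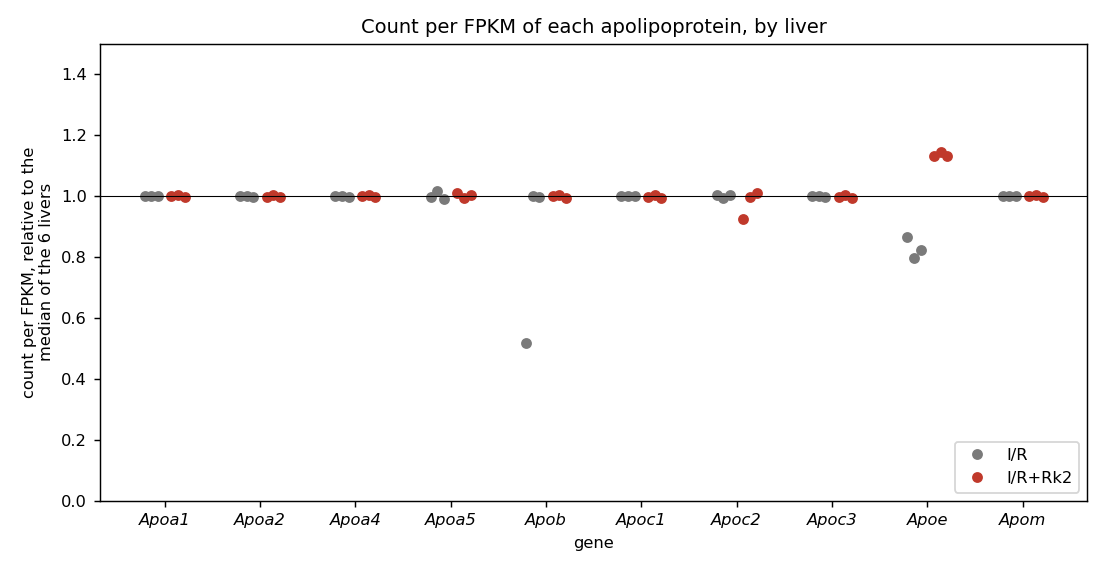
Counts per 1000000 divided by FPKM for each apolipoprotein (x axis), shown relative to the median of the 6 livers (y axis, from 0, no unit). Points are livers, grey for vehicle and red for Rk2. Points lie near 1 for 8 genes, while the groups separate for Apoe and vehicle liver 1 stands apart for Apob.

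How far each member moved depended on how the libraries were scaled, because the scaling sets the zero line for all genes. Under TMM the median of all genes was -0.01, under library size alone -0.17 and under scaling by the 18 hepatocyte markers -0.42. The median of the 10 members was 0.45, 0.29 and 0.04 in these fits. It lay 0.46 above the median of all genes in each of the 3, and 8 of 10 members were above that median in each. These scalings move all genes by nearly the same amount, so this agreement was fixed in advance and carries no weight. In limma on log2(FPKM + 1) the distance was 0.41, with 7 members above. With a transcript length trend taken out it was 0.25, with 8 above. With hepatocyte scaling, which was built from markers that themselves had risen, 3 members passed edgeR's test, against 45.7% of all genes, of which 4.1% of genes tested were higher and 41.6% lower. Apoe stayed higher at 0.65 (SE 0.11, adjusted p 0.00220). Apoa4 fell by 1.17 (SE 0.22, adjusted p 0.00340) and Apoa5 fell by 0.65 (SE 0.14, adjusted p 0.00652). Apoc3 stood at 0.25 (adjusted p 0.0752), Apoc1 at 0.23 (0.163) and Apoa2 at 0.14 (0.297), and none of these passed. Apoa1, Apom and Apob turned negative in that fit without passing the test. In counts scaled by hepatocyte markers, then, Apoe was high and Apoa4 and Apoa5 were low. Single hepatocyte markers ranged from -0.46 to 1.06 under TMM, where Apoe stood at 1.07. In limma on log2(FPKM + 1), Apoe stood at 0.45 and the median of the markers at 0.27. The length that links Apoe counts to FPKM differed between groups. Whether Apoe rose more than the markers in FPKM was not tested.

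**Figure D3:**
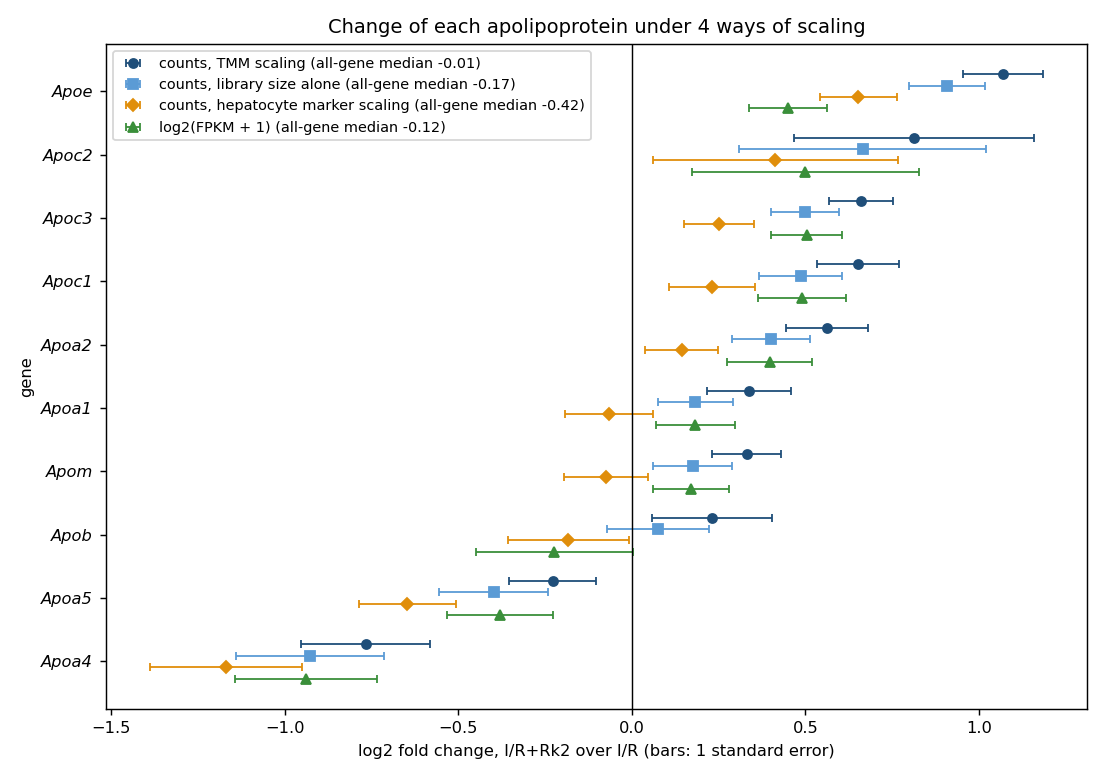
Log2 fold change of I/R+Rk2 over I/R (x axis) for each apolipoprotein (y axis) from counts with TMM scaling, with library size alone or with hepatocyte marker scaling, and from log2(FPKM + 1). Bars are 1 standard error, and the legend gives the median of all genes under each. Apoe lies right of 0 and Apoa4 left of 0 in all 4, whereas Apoa1, Apom and Apob lie on both sides.

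A further property that moved with the fold changes was transcript length. The length used was each gene's median over the libraries of the length that links its counts to its FPKM. For Apoe that length differed between groups, at 752 to 818 bases in vehicle livers and 1068 to 1080 bases in Rk2 livers. After a trend with transcript length across all genes was taken out, Apoe (0.82, SE 0.12, adjusted p 0.00226), Apoc3 (0.30, SE 0.09, adjusted p 0.0386) and Apoa4 (-0.86, SE 0.19, adjusted p 0.0108) still passed edgeR's test. Apoc1 (0.29, adjusted p 0.0925), Apoa2 (0.21, adjusted p 0.183) and Apom (0.10, adjusted p 0.450) did not. Apob, the longest transcript of the family, passed as higher in that edgeR fit, at 0.72 (SE 0.17, adjusted p 0.0157). The members' median was 0.25, against -0.003 over all genes.

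Neighbours on chromosome 9 went in opposite directions. There, Apoc3 rose (0.66) while Apoa4, the next gene, fell by 0.77, and Apoa1 (0.34) and Apoa5 (-0.23) did not pass the test. Ratios within a library do not depend on how libraries are scaled. The log2 ratio of Apoa4 to Apoc3 counts was -0.72, -1.02 and -1.12 in vehicle livers and -1.99, -2.48 and -2.73 in Rk2 livers, a mean difference of -1.45 between groups. The log2 ratio of Apoa1 to Apoa4 went from a mean of 3.77 ± 0.308 to 4.90 ± 0.295, and that of Apoa5 to Apoc3 from -0.13 ± 0.236 to -1.01 ± 0.0875. On chromosome 7 the log2 ratio of Apoe to Apoc1 went from 1.45 ± 0.0849 to 1.87 ± 0.0916 in counts. In FPKM, an alternative chosen after the data had been seen, the same ratio overlapped between groups, at 0.59, 0.88 and 0.72 in vehicle livers and 0.78, 0.70 and 0.59 in Rk2 livers. Of the 7 ratios of counts compared, 6 did not overlap between groups. Each of the 6 had p = 0.1 in an exact two-sided permutation test, the smallest possible, and 0.117 after Benjamini-Hochberg adjustment over the 7. The ratio of Apoa1 to Apoa2 overlapped (exact permutation p = 0.2). In FPKM 5 of the 7 did not overlap, all but Apoe to Apoc1 and Apoa1 to Apoa2. The pairs reuse the same genes, so these counts are not counts of separate results. By CPM, Apoa1 and Apoc3 were higher and Apoa4 lower in every Rk2 liver than in any vehicle liver. The ratios of Apoa4 to Apoc3 and of Apoa1 to Apoa4 were therefore bound not to overlap, and their p-values carry no weight. Among single genes, 57.4% did not overlap between groups in CPM. In FPKM it was 53.1% of genes with a mean FPKM of at least 1.

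Genes at the edges of the clusters were looked at after their values had been seen. Zpr1, which lies beyond Apoa5 and encodes a zinc finger protein, was lower in Rk2 livers (53.2 ± 3.29 against 34.2 ± 1.99 CPM, -0.64, SE 0.09, edgeR adjusted p 0.00193). Sik3, at the other edge beyond Apoa1, was also lower (-0.46, SE 0.12, edgeR adjusted p 0.0194). Bud13, beyond Zpr1, did not pass (-0.53, SE 0.24, edgeR adjusted p 0.118). Tomm40, beyond Apoe and encoding the pore of the mitochondrial import channel, had a log2 fold change of 0.03 (SE 0.11, edgeR adjusted p 0.861). Clptm1, beyond Apoc2, stood at 0.04 (SE 0.16, edgeR adjusted p 0.862). Within the chromosome 7 cluster, Gm44805 (0.52, adjusted p 0.00322) and Apoc4 (0.57, adjusted p 0.00273) rose in edgeR's test.

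**Figure D4:**
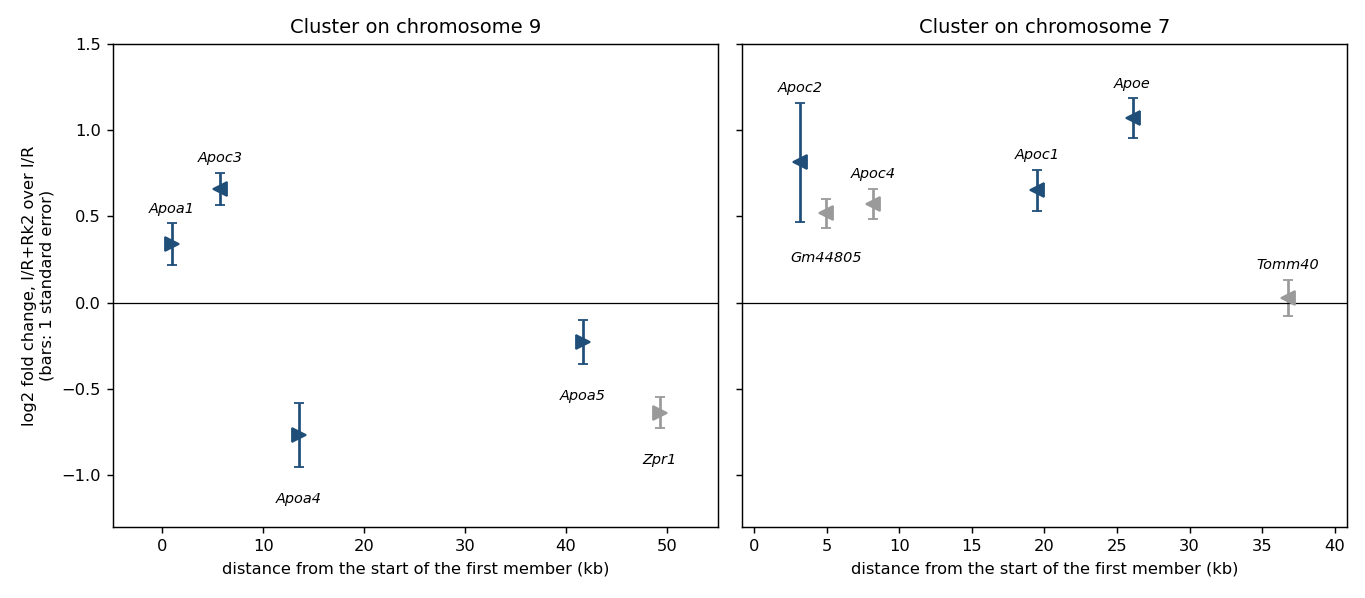
Log2 fold change of I/R+Rk2 over I/R (y axis) against distance in kb from the start of the first member (x axis) in the clusters on chromosomes 9 and 7. Blue points are the members, grey points other genes, bars 1 standard error, and triangles point along the strand of the gene. Members on chromosome 9 lie on both sides of 0 and those on chromosome 7 all lie above it.

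Genes that load and secrete apoB particles had a median log2 fold change of 0.40 over 11 tested genes, of which 6 were higher and 0 lower, against 43.9% of all genes called. The split was 3 higher and 1 lower with library size alone, and 1 higher and 3 lower with hepatocyte marker scaling. Cideb, a lipid droplet protein that helps lipidate these particles, rose from 107 ± 4.32 to 182 ± 19.1 CPM (0.77, SE 0.10, edgeR adjusted p 0.00145). Tm6sf2 (0.84, SE 0.13), which acts in loading triglyceride onto the particles, Dgat2 (0.69, SE 0.11), an enzyme of triglyceride synthesis, and Sar1b (0.45, SE 0.10), a GTPase of vesicles leaving the endoplasmic reticulum, also passed under TMM. Tm6sf2 and Dgat2 each lost the call in 1 of 19 alternatives, hepatocyte marker scaling, and Sar1b lost it in 6. Mttp, whose product loads lipid onto apoB, was among the 6 too (0.40, SE 0.12, edgeR adjusted p 0.0347), lost the call in 9 of 19 alternatives, and is named here after its value was seen.

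Under TMM, plasma enzymes and their regulators had 7 genes higher and 1 lower of 13, against 43.9% of all genes called. Only 1 was higher, and 2 were lower, both with library size alone and with hepatocyte marker scaling. The count of 8 was 4 without vehicle liver 1 or Rk2 liver 2, and 5 without vehicle liver 2 or 3. Angptl4, an inhibitor of lipoprotein lipase, fell from 139 ± 19.8 to 72.7 ± 20.3 CPM (-0.94, SE 0.21, edgeR adjusted p 0.0110). Pon1, an HDL-bound esterase, was at 437 ± 27.1 and 613 ± 82.2 CPM (0.49, SE 0.12, edgeR adjusted p 0.0144) and lost the call in 6 of 19 alternatives, among them library size alone (adjusted p 0.0615) and the 3 limma fits on FPKM. Gpihbp1 (0.49, SE 0.12), which anchors lipoprotein lipase to capillaries, and Lmf1 (0.40, SE 0.10), which folds lipases, also passed the test, and Lmf1 changed sign under hepatocyte marker scaling. Gpihbp1 lost its call in 4 of 19 alternatives, without Rk2 liver 2 among them (edgeR adjusted p 0.0619), and Lmf1 in 7, without vehicle liver 3 among them (edgeR adjusted p 0.0652).

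Under TMM, receptors and cholesterol export genes had 3 higher and 2 lower of 11, a share near the 43.9% of all genes, and a median of 0.06. None of the 3 higher calls held with library size alone (0 higher and 3 lower), with hepatocyte marker scaling (0 and 4) or in the 3 limma fits on FPKM (0 higher in each). The count of 5 was 3 without vehicle liver 1 or Rk2 liver 2 and 2 without vehicle liver 3. Abca1, which moves cellular cholesterol onto apoA-I, fell from 278 ± 10.7 to 98.2 ± 10.8 CPM (-1.50, SE 0.10, edgeR adjusted p 0.000240). Abcg1, which exports cholesterol to HDL, fell from 6.79 ± 2.66 to 1.62 ± 0.237 CPM (-2.05, SE 0.33, edgeR adjusted p 0.00316). Both are also expressed in macrophages, whose markers were lower in the same livers, and the part of those cells was not tested. Lrpap1, a chaperone of lipoprotein receptors, was at 0.36 (SE 0.08, edgeR adjusted p 0.0125), changed sign under hepatocyte marker scaling, and lost its call in 7 of 19 alternatives, without vehicle liver 3 (0.0560) and without Rk2 liver 2 (0.0518) among them.

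Among 19 transcription regulators of apolipoprotein genes, 7 were higher and 1 lower under TMM, a share near the 43.9% of all genes, and the median was 0.28. The split was 6 and 2 with library size alone and 4 and 4 with hepatocyte marker scaling. Nr1h4, the bile acid receptor FXR, rose from 42.0 ± 3.01 to 80.3 ± 1.55 CPM (0.94, SE 0.08, edgeR adjusted p 0.000501), and Nr1h3, the oxysterol receptor LXR alpha, by 0.84 (SE 0.14). Nr2f2 (0.83, SE 0.13), an orphan nuclear receptor, and Cebpa (0.66, SE 0.10), a hepatocyte factor, also passed. Nr2f2 lost the call in 4 of 19 alternatives and Cebpa in 1, and Nr1h4 and Nr1h3 in none. The gene that fell was Hnf4a, a nuclear receptor needed for expression of many apolipoprotein genes (660 ± 20.6 against 460 ± 44.2 CPM, -0.52, SE 0.10, edgeR adjusted p 0.00583), named after its value was seen.

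Other genes of apolipoprotein name or kind had 8 higher and 6 lower of 17 tested under TMM and with library size alone. With hepatocyte marker scaling they had 4 and 6. Of all genes, 43.9% were called under TMM, 38.7% with library size alone and 45.7% with hepatocyte marker scaling. Apof, whose product inhibits cholesteryl ester transfer, rose from 393 ± 12.6 to 650 ± 38.6 CPM (0.73, SE 0.09, edgeR adjusted p 0.00114). The acute phase HDL proteins Saa1 and Saa2 fell, from 1804 ± 398 to 286 ± 115 CPM and from 1680 ± 284 to 169 ± 65.1 CPM (-2.66, SE 0.31, and -3.31, SE 0.29). These neighbouring genes are nearly identical in sequence, so reads could be shared between them. Apobec1, which encodes the enzyme that edits Apob mRNA to the short form, fell from 21.7 ± 1.42 to 9.88 ± 1.01 CPM (-1.13, SE 0.12, edgeR adjusted p 0.000753). Under hepatocyte marker scaling, where all genes had a median of -0.42, the medians of the 5 lists were -0.002 for assembly and secretion, -0.02 for plasma enzymes, -0.36 for receptors and export, -0.13 for transcription regulators and 0.06 for the other apolipoproteins.

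**Figure D5:**
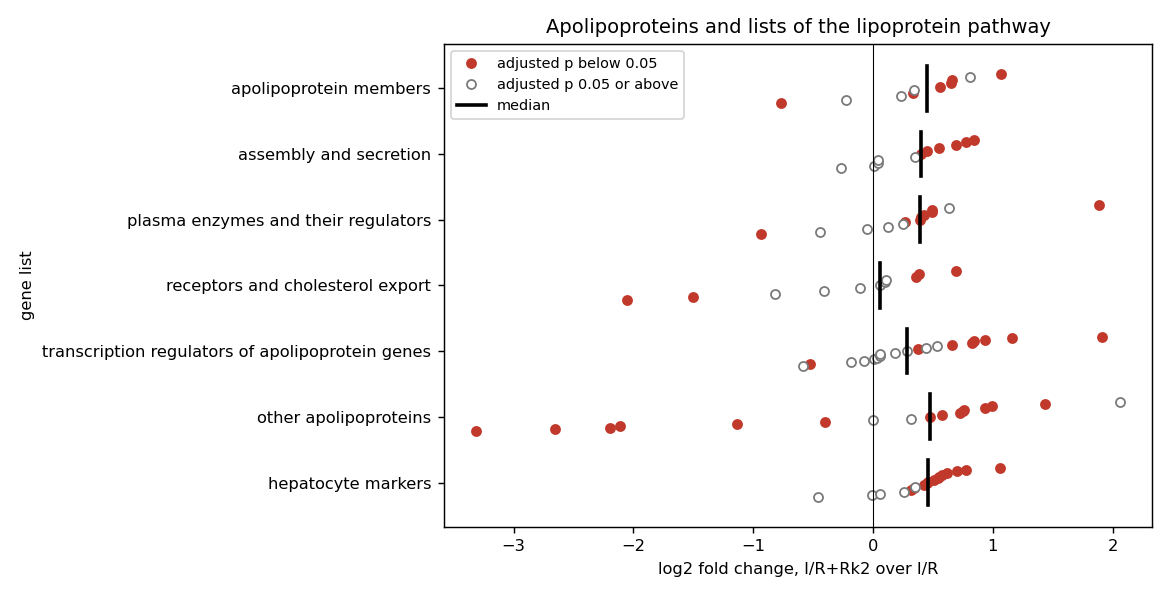
Log2 fold change of I/R+Rk2 over I/R (x axis) of the tested genes of each list (y axis), with the 10 apolipoproteins at the top and the hepatocyte markers at the bottom. Red points had an adjusted p below 0.05, open points did not, and the black line is the list's median. The apolipoproteins (median 0.45) and the hepatocyte markers (median 0.45) have the same median to 2 decimals, and the lists of receptors and of other apolipoproteins reach furthest to the left.

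The genes whose profile over the 6 libraries lay nearest to that of Apoe, by Euclidean distance between centred log2(CPM + 1) values, were Zfp467 (0.154), Sox5 (0.172) and Fras1 (0.180). For Apoa2 they were Rwdd3 (0.0573), Mylk (0.0666) and Bphl (0.0681). The 6 libraries fall into 2 groups, so any gene that differs between the groups to a like degree lies near.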

How the data were processed

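The authors aligned reads (BGISEQ-500, 250 ng of RNA per liver) to mm10 and quantified genes. The submitters' processing notes name FastQC 0.11.5, HISAT2 2.2.1 and StringTie 1.3.3, and the annotation and strand setting are not given in the sources used here. They deposited whole-number counts per gene (15454 rows) and FPKM (21948 rows), which the authors had scaled by transcript length and library total. The number of per-library columns left without a sample was 0. How the counts were derived from the alignments is not given in the sources used here.

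The counts were fitted with edgeR 4.0.16 in R 4.3.3 (filterByExpr, TMM, quasi-likelihood F test without covariates, Benjamini-Hochberg over 12411 genes). A call is an adjusted p below 0.05, and a stricter call adds a fold above 2. Alternatives were DESeq2 1.42.0, limma 3.58.1 on log2(FPKM + 1) or log2(FPKM + 0.1), over genes whose mean FPKM was 1 or more or without a filter, other scalings and filters, a replicate block, removal of a length trend and leaving out each library. The code was tested on simulated counts. Total counts per library, 16809613 to 35618074, set the counting precision. Replicates of a group differed by a chi-square of 31.4 to 74.8 per degree of freedom, so each counted as 1 sample.

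The members, gene lists and marker lists were chosen with earlier results of these data known. Named were all members, the 4 tested genes with the smallest p of each pathway list, at most the 3 most abundant genes of each marker list, and the 3 nearest profiles of the member with the largest change and of the most abundant member. Genes outside this rule are said to have been seen first, and 1 gene that the rule selects is not reported here. Mia2 (assembly), Apod (other apolipoproteins) and Trac (T cells) had no row in the count table. Positions come from GENCODE M21, and promoter sequences from RefSeq (GRCm38.p6), matched for 8 of 10 members and not used here for Apoc1 and Apoc3. Lists of endothelial (4 higher and 3 lower of 8), stellate (0 and 3 of 8) and cholangiocyte markers (0 and 3 of 6, where the count of 3 was 1 without any library but Rk2 liver 1) were also read, and T, NK and B cell markers were too low to test.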

Additional observations from a re-analysis of the deposited data

How the results depend on the processing

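Over 19 alternatives, Apoe, Apoc3, Apoc1, Apoa2, Apoc2, Apoa4 and Apoa5 kept their direction in all. Apoe lost its call only in limma on log2(FPKM + 1) with no filter (adjusted p 0.0610). The number of members past the test was 6, with 5454 of all 12411 genes tested. Under hepatocyte marker scaling it was 3, with 5670 of 12411 genes. In limma on log2(FPKM + 1) with no filter it was 2, with 4133 of 15465 genes. Leaving out single libraries gave 4 to 7 members, 3933 to 5459 genes in all and 31 to 39 genes of the pathway lists. The difference in the members' share of counts was 0.666 percentage points, 1.28 with the 47 most abundant other genes taken out of the denominator, 1.07 with FPKM, and 0.619 to 0.705 when single libraries were left out. Directions reversed under hepatocyte marker scaling for Apoa1 (-0.0668), Apob (-0.183), Apom (-0.0745), Lmf1 (-0.00922) and Lrpap1 (-0.0554), by the construction of that scaling. Apob also reversed in the limma fits on FPKM (-0.223 with pseudocount 1, -0.224 with pseudocount 0.1 and -0.223 with no filter). These fits share the same FPKM values, in which vehicle liver 1 stood at 197 and all other livers at 95.2 to 136. The replicate numbers do not pair the samples, since same-numbered deviations correlated at -0.0313, 0.0477 and -0.0243 over genes. A fit with a replicate block called 5 members, without Apom (adjusted p 0.0596), and 4713 genes in all. Over all members and alternatives, 22 fits lost a call and 8 gained a call. Of the 8, 2 came from summing Apoc2 with its neighbours. Those neighbours held nearly all counts of the sums and were called higher by themselves, so the 2 do not speak for Apoc2. The log2 ratio of Apoe to Apoc1 differed between groups by 0.419 in counts and by -0.0393 in FPKM. Apoc2, with 56 to 244 counts per library, was the least counted member, and its reads may have been split with Gm44805.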
